A study of Rattus norvegicus with 24 samples.

Results

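Arachidonic acid is turned into lipid mediators by 3 enzyme families, and 6 of the genes involved are described here: the epoxygenase Cyp2c23, the hydroxylase Cyp4f1, the epoxide hydrolase Ephx1, the lipoxygenase Alox15, the lipoxygenase-activating protein gene Alox5ap and the prostaglandin receptor gene Ptger1. They were chosen by gene symbol, with earlier results of these data known. The array lists 12 probe identifiers for these 6 genes. For each gene 1 identifier carried values and the other carried none on any array, so the 6 genes stand for 6 of the 1766 probes with a value on at least 1 array (of 1422 genes with a single symbol).

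Cytochrome P450 epoxygenases convert arachidonic acid to epoxyeicosatrienoic acids, which relax renal vessels and inhibit sodium reabsorption, and epoxide hydrolases convert these epoxides to less active diols. P450 hydroxylases of the Cyp4 families make 20-HETE, a constrictor of renal vessels that also acts on tubular transport. Lipoxygenases make hydroperoxides and leukotrienes, mostly in leukocytes, and cyclooxygenase products act through prostaglandin receptors. In rodent kidney the P450 enzymes are known chiefly from the proximal tubule and the renal vessels.

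Kidney RNA was compared between rats of 1 strain on low and high salt (LS and HS in the labels), with both rats of a pair on each 2-colour array. One strain was SS, the Dahl rat whose blood pressure rises with salt. The other was SS-13BN/Mcw, shortened to SS-13BN, a consomic strain in which chromosome 13 comes from the Brown Norway strain, so that outside that chromosome all groups share the SS genome. The 4 groups were SS overnight, SS at 3 days, SS-13BN overnight and SS-13BN at 3 days, each with 3 rat pairs and 6 arrays, as every pair was hybridised in both dye orientations. Rat numbers 1 to 3 recur at both times in each strain, which may tie the 2 times together through shared animals. The sources used here give no age, sex or salt content of the diets.

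The deposited values are log ratios of unstated base and numerator, so a gene can be placed on one side of 0 only, with no fold and no direction with salt. Arrays were median-centred, and a pair value is the mean of the pair's 2 arrays. An array held values for 877 to 1412 probes, and precision is limited by the 3 rat pairs of each group. A ratio carries no level, so the kidney label could not be checked against the levels of its markers. Neither SS group shared its run of slide numbers with another group, and between strains, or between times in SS, an effect of slide order therefore cannot be told apart from the comparison itself.

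RefSeq promoter entries were found for 4 of the 6 genes, and none for Alox5ap and Alox15. The promoters of these 4 genes are shown for reference, as RefSeq gives them for the GRCr8 assembly. They run from 250 bases before to 50 bases after the start site. Cyp2c23 lies on chromosome 1 (chr1:252863018-252863317, minus strand), Cyp4f1 on chromosome 7 (chr7:12672504-12672803, minus strand), and Ephx1 has 2 start sites on chromosome 13 (chr13:95275803-95276102 and chr13:95263068-95263367, minus strand). Ptger1 lies on chromosome 19 (chr19:41378235-41378534, minus strand). Ephx1 therefore lies on the chromosome that differs between the strains. Capitals mark matches on either strand to the 7 motifs that are spelled out after the sequences.
Cyp2c23: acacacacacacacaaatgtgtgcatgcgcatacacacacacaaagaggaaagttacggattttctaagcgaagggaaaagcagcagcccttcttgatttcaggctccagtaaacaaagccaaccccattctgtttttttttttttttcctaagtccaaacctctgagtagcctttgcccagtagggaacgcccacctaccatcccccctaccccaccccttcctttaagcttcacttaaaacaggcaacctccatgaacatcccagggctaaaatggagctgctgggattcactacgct
Cyp4f1: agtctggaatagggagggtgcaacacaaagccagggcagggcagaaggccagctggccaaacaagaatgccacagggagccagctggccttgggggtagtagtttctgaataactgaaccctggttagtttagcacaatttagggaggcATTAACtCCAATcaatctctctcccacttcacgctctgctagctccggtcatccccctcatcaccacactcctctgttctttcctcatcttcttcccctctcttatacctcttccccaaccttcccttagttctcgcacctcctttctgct
Ephx1, first start site: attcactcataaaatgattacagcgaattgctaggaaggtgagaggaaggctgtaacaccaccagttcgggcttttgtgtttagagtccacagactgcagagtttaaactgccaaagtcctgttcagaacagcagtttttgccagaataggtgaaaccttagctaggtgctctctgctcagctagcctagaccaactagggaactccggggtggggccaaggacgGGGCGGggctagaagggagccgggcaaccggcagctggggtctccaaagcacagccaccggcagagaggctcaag
Ephx1, second start site: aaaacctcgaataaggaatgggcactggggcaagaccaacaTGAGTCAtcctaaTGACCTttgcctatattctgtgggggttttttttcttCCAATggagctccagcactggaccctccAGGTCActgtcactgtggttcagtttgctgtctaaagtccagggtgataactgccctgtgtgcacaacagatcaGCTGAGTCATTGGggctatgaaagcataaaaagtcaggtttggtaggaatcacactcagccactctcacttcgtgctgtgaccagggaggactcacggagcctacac
Ptger1: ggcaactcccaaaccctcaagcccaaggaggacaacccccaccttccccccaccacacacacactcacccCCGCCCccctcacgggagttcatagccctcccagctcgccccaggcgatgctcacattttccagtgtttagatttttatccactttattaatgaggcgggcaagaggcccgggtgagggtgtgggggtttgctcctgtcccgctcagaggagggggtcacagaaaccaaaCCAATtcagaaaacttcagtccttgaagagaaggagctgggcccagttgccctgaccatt

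The second Ephx1 promoter held 2 matches to the AP-1 site TGACTCA, which 4.63 percent of 33469 RefSeq rat promoters of this length contain. At the second of them the match overlapped both a TGACNNNGC match (the antioxidant response element core, in 12.1 percent of promoters) and a CCAAT box (in 37.5 percent). It also held 2 nuclear receptor half-sites, spelled AGGTCA (in 16.2 percent). The first Ephx1 promoter held 1 GC box GGGCGG (in 33.1 percent), and Cyp4f1 held a CCAAT box and an HNF1 half-site GTTAAT (in 7.45 percent). Ptger1 held 1 CCAAT box and 1 GC box. None of the searched letters, TATAAA (in 14.2 percent) included, was found in the Cyp2c23 window. These matches are descriptions of sequence, and no binding was measured.

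Cyp2c23, the main arachidonic acid epoxygenase of rat kidney, lay on the negative side in each of its 9 complete rat pairs and on 20 of its 21 arrays. In SS rats overnight pair 1 stood at -0.47 and pair 3 at -0.73, a mean of -0.60 ± 0.18 (SD, n = 2), and pair 2 had only 1 array, at -0.79. In SS rats at 3 days pairs 1, 2 and 3 stood at -1.17, -0.55 and -0.053, a mean of -0.59 ± 0.56 (SD, n = 3). Pair 3 was the one close to 0, with its 2 arrays at -0.26 and 0.15.

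In SS-13BN rats overnight Cyp2c23 stood at -1.08 in pair 1 and -0.85 in pair 2, a mean of -0.96 ± 0.17 (SD, n = 2). Pair 3 had 1 array, at -1.74, the lowest value of any array for this gene. At 3 days the complete pairs 2 and 3 stood at -0.78 and -0.89 (mean -0.84 ± 0.083, SD, n = 2), and the single array of pair 1 at -0.49. The overnight pairs of SS-13BN were thus both lower than both SS pairs, and the groups at 3 days overlapped. Overnight the pair values of the strains did not overlap for 10.9 percent of probes, most of which had more pairs than Cyp2c23.

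Against 0, Cyp2c23 passed limma's test in SS-13BN overnight (-0.96 ± 0.21, SE, adjusted p = 0.0206). It was the only one of the 6 genes tested there to pass, where 10.5 percent of 1100 probes passed and 7.36 percent passed on the negative side. It did not pass in SS overnight (adjusted p = 0.19), SS at 3 days (adjusted p = 0.182) or SS-13BN at 3 days (adjusted p = 0.0826). The call in SS-13BN overnight was lost without pair 3 of that group (adjusted p = 0.063), in which the gene itself had no complete pair, and in a fit of that group alone (adjusted p = 0.0558). Without pair 1 or pair 2 the gene could not be tested. In SS at 3 days it passed when pair 3, the pair near 0, was left out (-0.86, adjusted p = 0.0407), and it was -0.30 without pair 1.

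**Figure D1:**
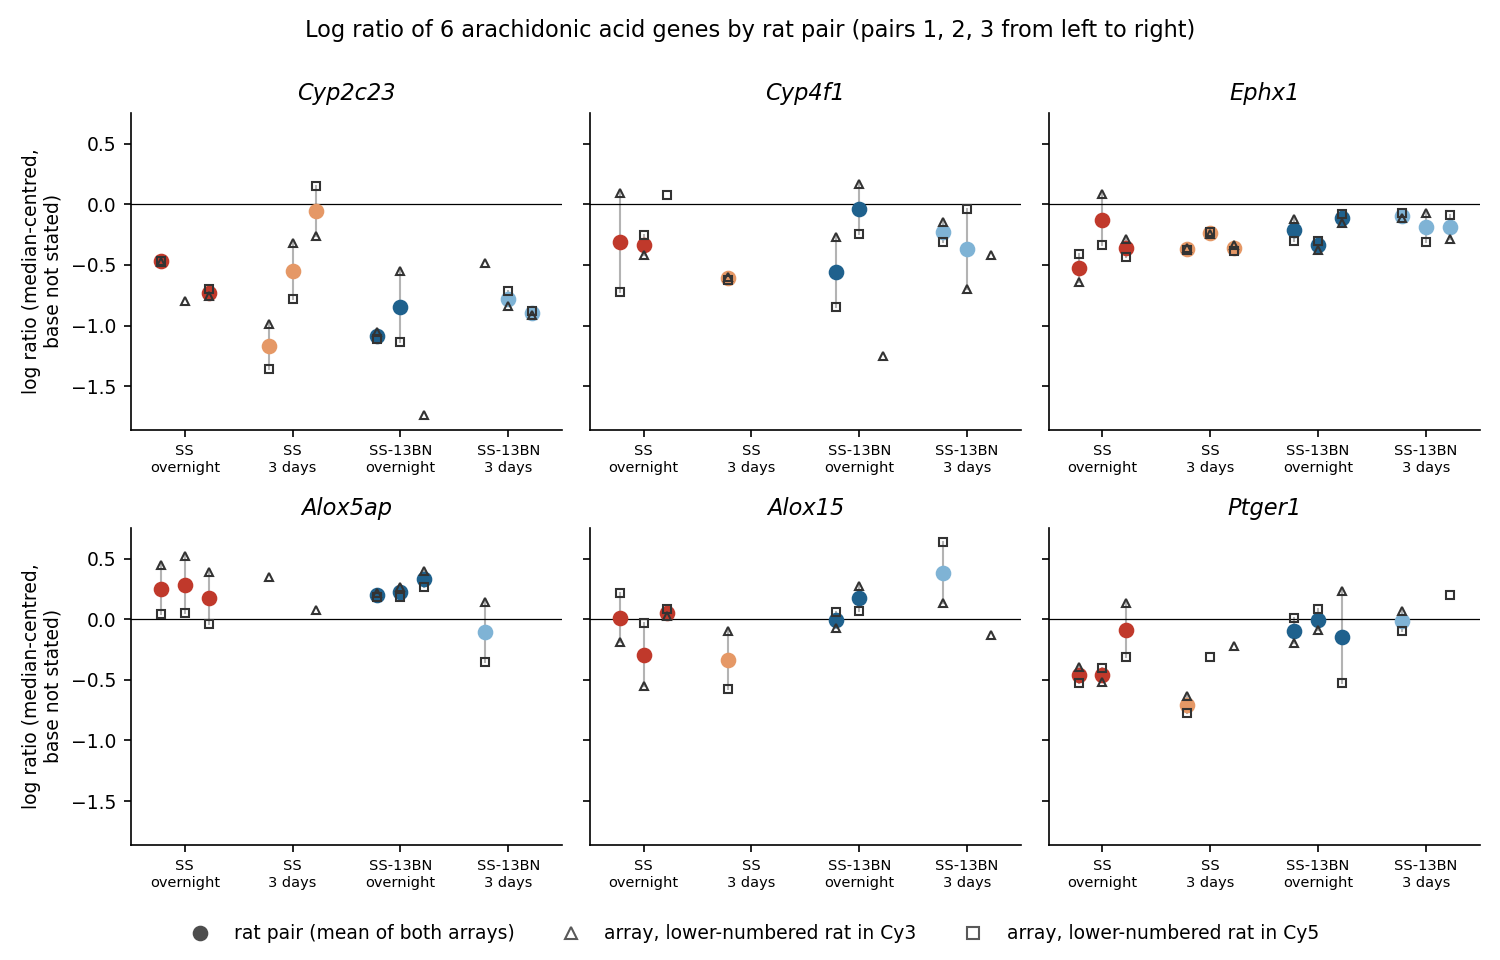
Median-centred log ratio (y axis, base not stated) of each of the 6 genes in the 4 groups (x axis). Filled circles are rat pairs, triangles and squares the 2 arrays of a pair, and a triangle or square alone is a pair with 1 array. Cyp2c23 and Ephx1 lie below 0 in every complete pair, Alox5ap lies above 0 in 6 of 7, and Cyp4f1, Alox5ap, Alox15 and Ptger1 have at most 1 complete pair in SS at 3 days.

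Cyp4f1, a P450 hydroxylase of the family that hydroxylates arachidonic acid and leukotriene B4, lay on the negative side in each of its 7 complete pairs. Pairs 1 and 2 of SS overnight stood at -0.31 and -0.34, and the 1 complete pair of SS at 3 days at -0.61. SS overnight pair 3 had 1 array, at 0.074, SS-13BN overnight pair 3 had 1 at -1.25, and SS-13BN pair 3 at 3 days had 1 at -0.42. In SS-13BN overnight the pairs stood at -0.56 and -0.037, and at 3 days at -0.23 and -0.37. The range of the SS-13BN overnight pairs took in every complete pair of this gene other than that of SS at 3 days.

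The 2 arrays of a pair disagreed more for Cyp4f1 than its pair means show. In SS overnight pair 1 they stood at 0.093 and -0.72, and in SS-13BN overnight pair 2 at 0.17 and -0.24. Of its 17 arrays 14 were negative. It did not pass in SS overnight (-0.33 ± 0.13, SE, adjusted p = 0.293), SS-13BN overnight (-0.30 ± 0.13, SE, adjusted p = 0.179) or SS-13BN at 3 days (-0.30 ± 0.13, SE, adjusted p = 0.311), and SS at 3 days had too few pairs to test. Single arrays were also counted as pairs, after correction for the gene's mean difference between dye orientations. The Cyp4f1 value was then -0.16 in SS overnight (adjusted p = 0.737) and -0.64 in SS-13BN overnight (adjusted p = 0.0782). Cyp2c23 and Cyp4f1 belong to families of closely related genes, and signal from relatives on these probes was not tested.

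Ephx1, which encodes the microsomal epoxide hydrolase, was the only one of the 6 genes with all 12 pairs, and it lay on the negative side in each of them and on 23 of 24 arrays. In SS overnight pairs 1, 2 and 3 stood at -0.53, -0.13 and -0.36 (mean -0.34 ± 0.20, SD, n = 3). In SS at 3 days they stood at -0.37, -0.24 and -0.36 (mean -0.32 ± 0.075, SD, n = 3). In both SS groups pair 2 was the one nearest 0.

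In SS-13BN overnight the Ephx1 pairs stood at -0.21, -0.34 and -0.12 (mean -0.22 ± 0.11, SD, n = 3). At 3 days they stood at -0.092, -0.19 and -0.19 (mean -0.16 ± 0.055, SD, n = 3). The pair values of the strains overlapped overnight and did not overlap at 3 days, as held for 15.8 percent of probes. The individual arrays did overlap at 3 days. Both arrays of SS pair 2 (-0.25 and -0.22) were nearer 0 than 1 array each of SS-13BN pairs 2 and 3 (-0.31 and -0.29). Ephx1 did not pass in SS overnight (adjusted p = 0.0658), SS at 3 days (adjusted p = 0.13), SS-13BN overnight (adjusted p = 0.0963) or SS-13BN at 3 days (adjusted p = 0.333). In SS overnight it passed with arrays scaled to one spread (-0.37, adjusted p = 0.0157), after quantile normalization (-0.39, adjusted p = 0.016) and without pair 2 (-0.44, adjusted p = 0.0432), while without pair 1 it was -0.24.

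Alox5ap, whose product presents arachidonic acid to 5-lipoxygenase, was the one gene on the positive side in both overnight groups. Its pairs stood at 0.25, 0.28 and 0.17 in SS overnight (mean 0.24 ± 0.056, SD, n = 3) and at 0.20, 0.22 and 0.33 in SS-13BN overnight (mean 0.25 ± 0.068, SD, n = 3), and the strains overlapped. At 3 days it had 1 complete pair, in SS-13BN, at -0.10, and single arrays at 0.35 and 0.080 in SS pairs 1 and 3. It did not pass in SS overnight (adjusted p = 0.163) or SS-13BN overnight (adjusted p = 0.0614). It passed in SS-13BN overnight with arrays scaled to one spread (0.24, adjusted p = 0.0479), after quantile normalization (0.25, adjusted p = 0.0472), in an array-level fit (0.25, adjusted p = 0.039) and with all 3 pairs required (0.25, adjusted p = 0.0483).

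The Alox5ap values moved with the dye. In each of its 7 complete pairs the array with the lower-numbered rat in Cy5 was lower than the array with that rat in Cy3, with a half-difference (Cy5 minus Cy3) of -0.147 ± 0.10 (SD, n = 7 pairs). In SS overnight the arrays with that rat in Cy3 stood at 0.45, 0.52 and 0.39 and those with it in Cy5 at 0.045, 0.048 and -0.043. In SS-13BN overnight both orientations were positive, at 0.22, 0.27 and 0.40 and at 0.19, 0.18 and 0.26. The same half-difference averaged -0.018 ± 0.094 (SD, n = 12 pairs) for Ephx1 and -0.047 ± 0.16 (SD, n = 9 pairs) for Cyp2c23.

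Alox15, the 12/15-lipoxygenase that oxygenates arachidonic acid directly, showed no common side. Its pairs stood at 0.013, -0.29 and 0.055 in SS overnight (mean -0.075 ± 0.19, SD, n = 3) and at -0.0061 and 0.17 in SS-13BN overnight (mean 0.083 ± 0.13, SD, n = 2). At 3 days each strain had 1 complete pair, at -0.34 in SS and 0.39 in SS-13BN, where pair 3 also had 1 array, on the other side at -0.13. With that array counted as a pair, after the same dye correction, SS-13BN at 3 days came to 0.16 ± 0.14 (SE, adjusted p = 0.633). The groups overlapped overnight, and the 2 single pairs at 3 days allow no test. It did not pass in SS overnight (-0.075 ± 0.095, SE, adjusted p = 0.737) or SS-13BN overnight (0.083 ± 0.12, SE, adjusted p = 0.659).

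Ptger1, the EP1 receptor of prostaglandin E2, lay on the negative side in each of its 8 complete pairs, farther from 0 in 3 of 4 SS pairs than in any SS-13BN pair. Its pairs stood at -0.46, -0.46 and -0.088 in SS overnight (mean -0.34 ± 0.21, SD, n = 3) and at -0.094, -0.0039 and -0.15 in SS-13BN overnight (mean -0.082 ± 0.072, SD, n = 3). Pair 3 of SS fell within the range of the SS-13BN pairs. Of the 19 Ptger1 arrays 13 were negative, with 5 of 6 in SS overnight and 3 of 6 in SS-13BN overnight. In each complete SS-13BN pair, at either time, the 2 arrays lay on opposite sides of 0. The same held for SS overnight pair 3 (0.13 and -0.31). At 3 days the complete pairs stood at -0.70 in SS and -0.014 in SS-13BN, with further single arrays at -0.31 and -0.22 in SS and at 0.20 in SS-13BN.

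All 4 Ptger1 arrays of SS at 3 days were negative, against 1 of 3 in SS-13BN. It did not pass in SS overnight (-0.34 ± 0.093, SE, adjusted p = 0.14) or SS-13BN overnight (-0.082 ± 0.093, SE, adjusted p = 0.574). Where a pair was allowed to count with 1 array, Ptger1 could also be tested at 3 days and passed in neither strain (-0.41 ± 0.11, SE, adjusted p = 0.201 in SS and 0.13 ± 0.13, SE, adjusted p = 0.693 in SS-13BN).

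**Figure D2:**
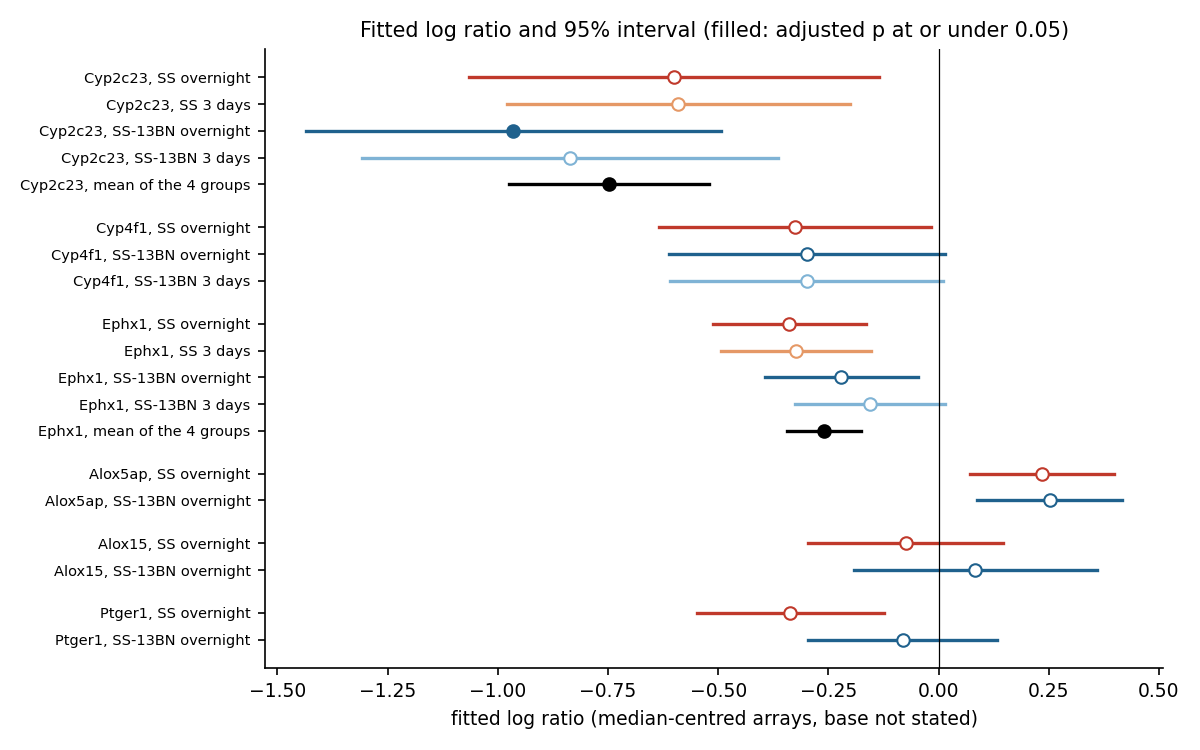
Fitted log ratio (x axis, base not stated) with its 95% interval for each gene and group that could be tested (y axis), and for the mean of the 4 groups. Filled circles have an adjusted p at or under 0.05 in limma, and these are Cyp2c23 in SS-13BN overnight and Cyp2c23 and Ephx1 in the mean of the 4 groups.

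Counted per group, all 6 genes could be tested overnight in both strains, 2 in SS at 3 days and 3 in SS-13BN at 3 days. In SS overnight limma called 0 of 6, with 1.14 percent of 1139 probes called. At an unadjusted p under 0.05 the number was 5 of 6, against 15.3 percent of probes. There 4 genes were negative in every measured pair (19.7 percent of probes) and 1 was positive in every pair (22.0 percent), and the median of the 6 genes was -0.33 against 0.0071 over all probes. The genes were chosen with earlier results of these data known. The counts and medians of each group therefore describe the set and do not test it.

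In SS-13BN overnight 3 of 6 genes had an unadjusted p under 0.05, against 30.5 percent of probes. Again 4 of the 6 genes were negative in every measured pair, against 27.1 percent of probes, and Alox5ap was positive in every pair, against 30.4 percent, with a median of -0.15 over the genes and -0.0016 over all probes. At 3 days limma called 0 of 2 genes in SS (0.340 percent of 883 probes) and 0 of 3 in SS-13BN (2.98 percent of 907 probes). The numbers at an unadjusted p under 0.05 were 2 of 2 (12.2 percent of probes) and 1 of 3 (16.6 percent). All of these genes were negative in every measured pair, 2 of 2 in SS (16.5 percent of probes) and 3 of 3 in SS-13BN (25.6 percent). In SS-13BN at 3 days Cyp2c23 and Cyp4f1 had 2 complete pairs, while 753 of 907 probes had all 3. Both genes also had 2 pairs in each overnight group, where 1042 of 1139 probes in SS and 923 of 1100 in SS-13BN had 3. One side is held more easily over 2 pairs than over 3, so those shares are not like for like. Fitting the lower-numbered rat as a block changed no call at the adjusted threshold in these 4 groups. It moved the unadjusted p of Cyp4f1 in SS overnight from 0.0412 to 0.0501, which left 4 of 6 genes under 0.05 there.

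The strain difference, SS minus SS-13BN, asks whether the substituted chromosome went with another response. Cyp2c23 differed by 0.36 ± 0.29 overnight (SE, 95% interval -0.30 to 1.03, adjusted p = 0.967) and 0.25 ± 0.27 at 3 days (SE, 95% interval -0.36 to 0.85, adjusted p = 0.782), with SS nearer to 0. Without pair 3 of SS the difference at 3 days was -0.023. Ephx1 differed the other way, by -0.12 ± 0.11 overnight (SE, 95% interval -0.36 to 0.13, adjusted p = 0.973) and -0.17 ± 0.11 at 3 days (SE, 95% interval -0.41 to 0.072, adjusted p = 0.631), with SS farther from 0. Ptger1 differed by -0.25 ± 0.13 overnight (SE, 95% interval -0.55 to 0.044, adjusted p = 0.898).

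The other 3 genes could be compared between strains overnight. Alox5ap differed by -0.017 ± 0.10 (SE, 95% interval -0.25 to 0.21), Cyp4f1 by -0.028 ± 0.19 (SE, 95% interval -0.47 to 0.41) and Alox15 by -0.16 ± 0.15 (SE, 95% interval -0.51 to 0.19). In limma 0 genes and 0 percent of probes passed at either time. At an unadjusted p under 0.05 the number was 0 of 6 overnight (5.03 percent of probes) and 0 of 2 at 3 days (8.37 percent). Pair values of the strains did not overlap for 1 of 6 genes overnight (Cyp2c23, with 2 pairs a strain), against 10.9 percent of probes, and for 1 of 2 at 3 days (Ephx1), against 15.8 percent. Most probes had 3 pairs a strain overnight, and 2 pairs against 2 separate more easily, so the share overnight is not like for like. The intervals of the strain differences are wide, and a p that misses the threshold does not show that the strains respond alike.

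The time difference, 3 days minus overnight, could be tested for Cyp2c23 and Ephx1 in SS and also for Cyp4f1 in SS-13BN. In SS it was 0.0098 ± 0.27 for Cyp2c23 (SE, 95% interval -0.60 to 0.62, adjusted p = 0.988) and 0.016 ± 0.11 for Ephx1 (SE, 95% interval -0.22 to 0.26, adjusted p = 0.988). In SS-13BN it was 0.13 ± 0.30 for Cyp2c23 (SE, 95% interval -0.54 to 0.80, adjusted p = 0.871), 0.065 ± 0.11 for Ephx1 (SE, 95% interval -0.18 to 0.31, adjusted p = 0.819) and -0.0016 ± 0.19 for Cyp4f1 (SE, 95% interval -0.44 to 0.44, adjusted p = 0.997). In limma 0 genes and 0 percent of probes passed. At an unadjusted p under 0.05 the number was 0 of 2 in SS (1.93 percent of probes) and 0 of 3 in SS-13BN (11.3 percent). The pairs of the 2 times overlapped for each of these genes, while they did not for 7.50 percent of probes in SS and 22.7 percent in SS-13BN.

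The mean of the 4 groups asks what lay off 0 on average over strains and times, and 2 of the 6 genes could be tested in it. Both were negative and passed, Cyp2c23 at -0.75 ± 0.10 (SE, adjusted p = 0.00118) and Ephx1 at -0.26 ± 0.039 (SE, adjusted p = 0.0008), where 28.5 percent of 822 probes passed and 15.1 percent passed on the negative side. With the lower-numbered rat as a block the adjusted p was 0.00361 for Cyp2c23 and 0.00196 for Ephx1. Both genes were negative in every measured pair (9 for Cyp2c23 and 12 for Ephx1), as were 3.65 percent of probes. Of the 822 probes 701 had values on all arrays, so that share is not like for like for Cyp2c23. Ephx1 passed without each of the 12 pairs in turn, between -0.29 and -0.24. Cyp2c23 could be tested in 6 of those fits and passed in each, between -0.81 and -0.68. Where a pair was allowed to count with 1 array, Ptger1 passed as well (-0.18 ± 0.057, SE, adjusted p = 0.0418).

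Markers of the proximal tubule, where Cyp2c23 is known to be expressed, were mostly on the negative side too. Of 22 listed markers 15 had a probe with values. On the negative side were 10 of 12 tested in SS overnight, 9 of 10 in SS at 3 days, 13 of 15 in SS-13BN overnight and 11 of 13 in SS-13BN at 3 days. Of these 0, 0, 11 and 7 passed, where 1.14, 0.340, 10.5 and 2.98 percent of all probes passed. Aqp1 was on the positive side in each of these groups (0.11, 0.086, 0.054 and 0.19). Fbp1 was positive wherever it was tested (0.15 in SS overnight, 0.18 in SS-13BN overnight and 0.21 in SS-13BN at 3 days). In the mean of the 4 groups 9 of 10 tested markers passed limma on the negative side, against 15.1 percent of probes. Aqp1 passed there on the positive side (0.11 ± 0.031, SE, adjusted p = 0.0217, and 0.0562 with the replicate block). The 7 marker probes with values in all pairs (Aadat, Anpep, Aqp1, Dpp4, Hao2, Mme and Slc15a2) had pair means of -0.60 to -0.30 in SS overnight and -0.91 to -0.13 in SS at 3 days. They ran from -1.62 to -0.62 in SS-13BN overnight and from -1.01 to -0.77 in SS-13BN at 3 days.

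Pair 3 of SS at 3 days, where Cyp2c23 stood at -0.053, also had the marker mean nearest 0 (-0.13), and pair 1 of that group had Cyp2c23 at -1.17 and a marker mean of -0.91. Pair 3 of SS-13BN overnight, with the lowest single Cyp2c23 array, had the lowest marker mean, -1.62. In the other 3 groups the 2 complete pairs of each ran the other way, while the single arrays went with the markers. The single array of SS overnight pair 2 stood at -0.79 with a marker mean of -0.60, each the lowest of that group. That of SS-13BN pair 1 at 3 days stood at -0.49 with a marker mean of -0.77, each the nearest to 0 of that group. Cyp2c23 stood at -0.47 and -0.73 in SS overnight pairs 1 and 3, with marker means of -0.40 and -0.30. It stood at -1.08 and -0.85 in SS-13BN overnight pairs 1 and 2, with marker means of -0.62 and -0.90, and at -0.78 and -0.89 in SS-13BN pairs 2 and 3 at 3 days, with marker means of -1.01 and -0.94. Ephx1 stood at -0.36 in pair 3 of SS at 3 days, with markers nearest 0, and at -0.12 in pair 3 of SS-13BN overnight, with the lowest markers. In SS overnight pair 2, with the lowest marker mean of that group (-0.60), Ephx1 was nearest 0 (-0.13). In SS-13BN at 3 days Ephx1 followed the markers, at -0.092, -0.19 and -0.19 in pairs 1, 2 and 3 with marker means of -0.77, -1.01 and -0.94. In pair 1 of SS at 3 days Ephx1 (-0.37) and the marker mean (-0.91) were each the lowest of that group. In bulk kidney RNA fewer cells of a type and less RNA per cell cannot be told apart. The part of the marker shift in the Cyp2c23 and Ephx1 values was not tested.

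Markers of the thick ascending limb and distal tubule, with 6 of 10 measured, were also negative, for 5 of 5 tested in SS overnight, SS at 3 days and SS-13BN overnight and 2 of 5 in SS-13BN at 3 days. In limma 1 of them passed in SS-13BN overnight, where 10.5 percent of probes passed, and 0 in the other 3 groups. The 5 probes in all pairs had means of -0.22 to -0.16, -0.32 to -0.076, -0.27 to -0.11 and -0.036 to 0.040 in those groups, and they overlapped the Ephx1 pair values in the first 3. Their part in the Ephx1 values was not tested.

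**Figure D3:**
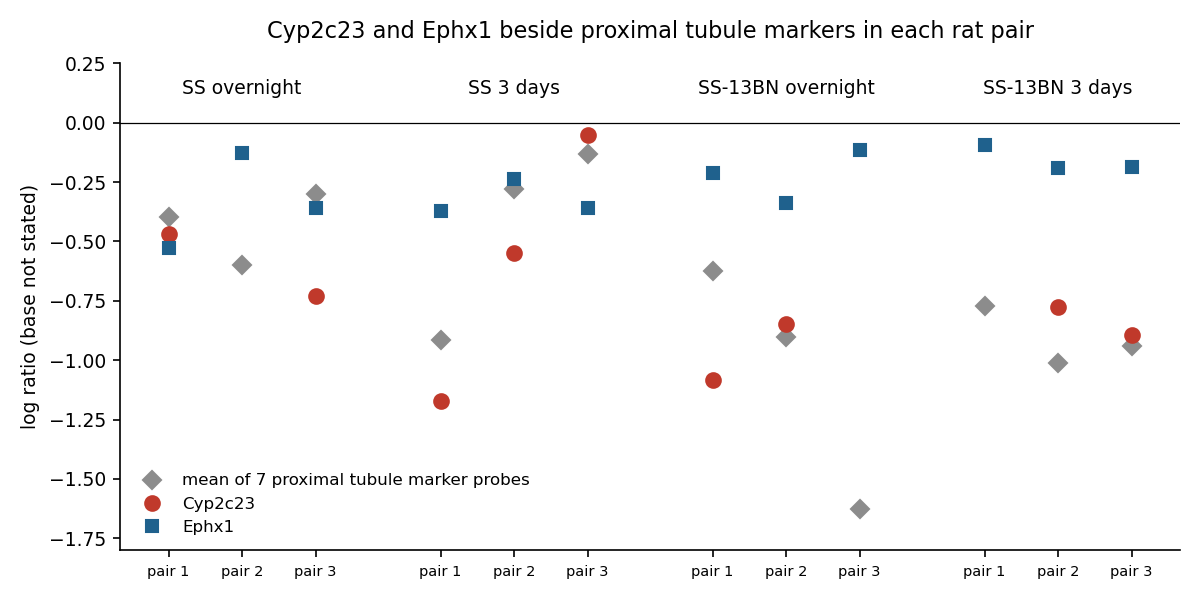
Log ratio (y axis, base not stated) of Cyp2c23 (circles), Ephx1 (squares) and the mean of 7 proximal tubule marker probes (diamonds) in each rat pair (x axis). Cyp2c23 and the markers lie near 0 together in pair 3 of SS at 3 days. In each other group the 2 complete Cyp2c23 pairs run opposite to the markers. Cyp2c23 pairs with 1 array, which went with the markers, are not drawn. Ephx1 stays between -0.53 and -0.092 over all 12 pairs.

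Leukocyte, endothelial and collecting duct markers were sparse on this array. Of 24 leukocyte markers, the cells in which Alox5ap is best known, 5 had values. Of these 2 could be tested in SS overnight (both positive) and 1 in SS-13BN overnight (positive), and 0 passed in limma. Only RT1-Ba, a class II histocompatibility gene, had a value in all 12 pairs, from -0.12 to 0.56 in SS overnight and from -0.18 to 0.68 in SS-13BN overnight. The partner enzyme gene Alox5 had a complete pair in SS at 3 days alone, at -0.32. Of 11 endothelial markers 2 had values, and one of them, Vcam1, an adhesion molecule gene of activated endothelium, passed on the positive side in SS overnight (0.59 ± 0.11, SE, adjusted p = 0.0316) and SS-13BN overnight (0.52 ± 0.11, SE, adjusted p = 0.0191). Of 10 collecting duct markers 3 had values, and 1 passed, on the positive side in SS-13BN at 3 days. Fibroblast and smooth muscle markers, with 11 of 13 measured, were positive for 6 of 8 tested in SS overnight and 7 of 7 in SS-13BN overnight, with 2 and 1 passing. Of all probes 1.14 percent passed in SS overnight, 10.5 percent in SS-13BN overnight and 2.98 percent in SS-13BN at 3 days. The part of these cell types in the Alox5ap values was not tested.

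The other genes of the pathway were taken from a list of 74 genes for release of arachidonic acid, its P450, lipoxygenase and cyclooxygenase enzymes, receptors and breakdown, of which 23 had values on at least 1 array. Of 11 that could be tested overnight 8 lay on the negative side in each strain. Of the 5 and 8 testable at 3 days, 5 were negative in SS and 5 in SS-13BN. Their medians overnight were -0.093 in SS and -0.14 in SS-13BN, against 0.0071 and -0.0016 over all probes. At 3 days they were -0.045 and -0.10, against -0.0054 and -0.0030. Beyond the 6 genes, 0 passed in SS at either time (1.14 percent of probes overnight and 0.340 percent at 3 days). In SS-13BN 1 passed on the negative side overnight (10.5 percent of probes passed) and 1 on the positive side at 3 days (2.98 percent).

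The negative one was Ggt1, the brush border gamma-glutamyl transferase that also trims leukotriene C4. It stood at -1.35 ± 0.71 in SS-13BN overnight (SD, n = 3, adjusted p = 0.0107), with pairs at -0.93, -0.95 and -2.17, at -0.79 ± 0.57 in SS-13BN at 3 days (SD, n = 3, adjusted p = 0.14) and at -0.59 ± 0.24 in SS overnight (SD, n = 3, adjusted p = 0.28). Its strain difference overnight was 0.76 ± 0.35 (SE, adjusted p = 0.898). Ggt1 is also one of the proximal tubule markers counted above. The positive one was Acsl3, an acyl-CoA synthetase that can return arachidonic acid to phospholipids. It stood at 0.17, 0.64 and 0.49 in SS-13BN at 3 days (mean 0.43 ± 0.24, SD, n = 3, adjusted p = 0.0293) and at -0.14 ± 0.17 in SS at 3 days (SD, n = 3, adjusted p = 0.591). Its strain difference at 3 days was -0.57 ± 0.13 (SE, adjusted p = 0.137), and its time differences were -0.15 ± 0.13 in SS (SE, adjusted p = 0.988) and 0.34 ± 0.13 in SS-13BN (SE, adjusted p = 0.4). Acsl1, a related synthetase, stood at 0.32 ± 0.23 in SS-13BN at 3 days (SD, n = 3, adjusted p = 0.0852), and its difference from the overnight group was 0.40 ± 0.12 (SE, adjusted p = 0.359).

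Among other P450 genes, Cyp4b1 lay on the side of Cyp4f1 and Cyp2c6v1 did not hold the side of Cyp2c23. Cyp4b1, a related Cyp4 enzyme, stood at -0.31 ± 0.17 in SS overnight (SD, n = 3, adjusted p = 0.163) and -0.26 ± 0.24 in SS-13BN overnight (SD, n = 3, adjusted p = 0.124). Cyp2c6v1, another member of the Cyp2c family, stood at -0.23 ± 0.33 in SS at 3 days (SD, n = 3, adjusted p = 0.467) and 0.31 ± 0.28 in SS-13BN at 3 days (SD, n = 3, adjusted p = 0.209), where Cyp2c23 was negative in both of its pairs. The strain difference of Cyp2c6v1 at 3 days was -0.54 ± 0.17 (SE, adjusted p = 0.332). The phospholipase gene Pla2g6 stood at -0.17 and -0.97 in the 2 complete pairs of SS-13BN overnight (adjusted p = 0.104), with a strain difference of 0.51 ± 0.25 (SE, adjusted p = 0.898). Anxa1, which encodes an inhibitor of phospholipase activity, stood at 0.093 ± 0.13 in SS overnight and -0.11 ± 0.081 in SS-13BN at 3 days (SD, n = 3, adjusted p = 0.558 and 0.451), with a time difference of -0.098 ± 0.10 in SS (SE, adjusted p = 0.988). In the mean of the 4 groups the smallest p among these genes belonged to Acsl3 (0.10 ± 0.046, SE, adjusted p = 0.117) and to Acsl4, a synthetase that prefers arachidonic acid (-0.11 ± 0.059, SE, adjusted p = 0.168).

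**Figure D4:**
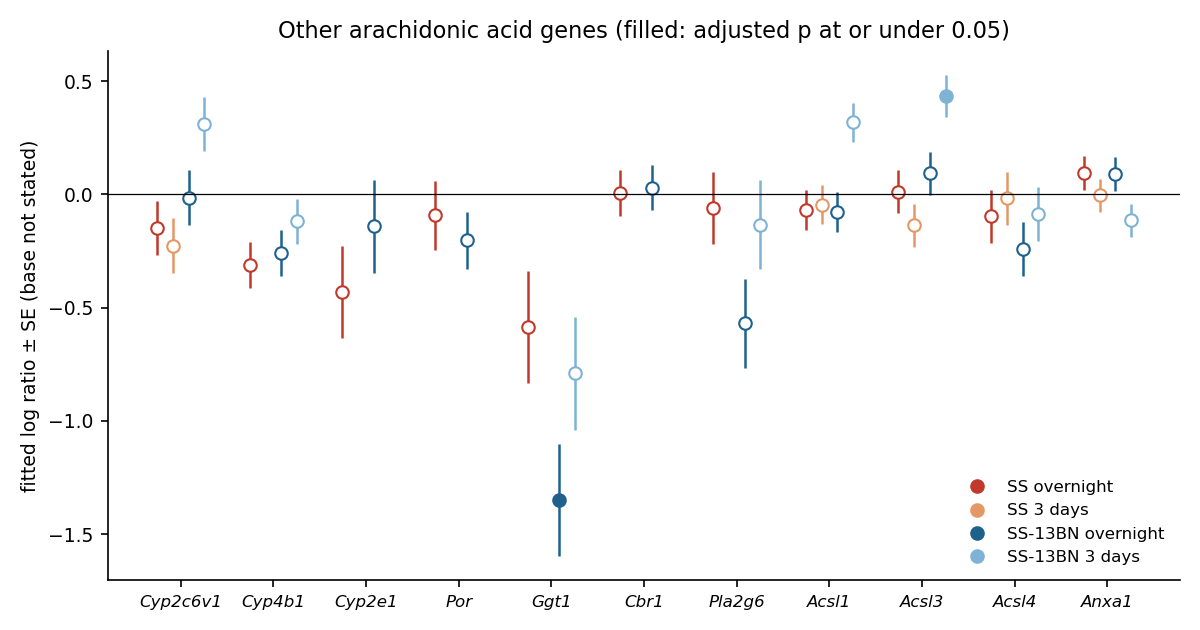
Fitted log ratio ± SE (y axis, base not stated) of the 11 other arachidonic acid genes that could be tested in at least 1 group (x axis), coloured by group. Filled circles have an adjusted p at or under 0.05 in limma, which holds for Ggt1 in SS-13BN overnight and Acsl3 in SS-13BN at 3 days.

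The genes with the most similar values over the rat pairs were found by the root mean square difference of pair values, in the units of the log ratio. For Ephx1 these were Gprc5b (0.155 over 12 pairs), the monocarboxylate transporter gene Slc16a7 (0.162 over 12 pairs) and Cyp4b1 (0.166 over 10 pairs), where the median over 707 named probes was 0.344. For Cyp2c23, which has too few pairs for the minimum of 10, a minimum of 8 was chosen after its values were seen. The nearest were the polarity gene Pard3 (0.243 over 8 pairs), the peroxisomal oxidase gene Hao2 (0.324 over 9 pairs) and the peptide transporter gene Slc15a2 (0.352 over 9 pairs), with a median of 0.817 over 664 probes. Hao2 and Slc15a2 are on the proximal tubule list. The root mean square of a gene's own pair values, its distance from 0, was 0.288 for Ephx1 and 0.797 for Cyp2c23. The measure therefore takes in the level of a probe as well as its pattern over the pairs. The means of Pard3, Hao2 and Slc15a2 were -0.78, -1.11 and -0.60. All these values share the same arrays and dye orientations.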

How the data were processed

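Total RNA of rat kidney was measured on 24 arrays with 2 channels. Per the deposited table, each array has 1 log ratio per probe, with a mean near 0. The sources used here do not name the scanner, background correction, log base or numerator. Of the probes with a value 1426 had 1 gene symbol, 29 several and 311 none. Symbols were taken from RefSeq's gene table for 1421 of them and otherwise from the array annotation.

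Arrays were centred on their median. They were not turned by dye, since r between the swapped arrays of a pair, less the mean of the other arrays of each orientation, was 0.169 to 0.825 and above 0 in 12 of 12 pairs (mean -0.041 between arrays of unlike pairs). Without that subtraction r was -0.059 to 0.749, and above 0 in 8 of 12 pairs. The dye effect, taken as the difference of swapped arrays, had r of 0.511 to 0.793 from pair to pair. Turning by dye was an alternative.

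A pair needed both arrays. Where a pair was allowed to count with 1 array, that array was first shifted by the probe's mean dye effect over its complete pairs. A probe was tested with at least 2 of 3 pairs in each group compared. For each comparison limma 3.58.1 in R 4.3.3 was fitted over all 12 pairs and the probes tested in that comparison, with 1 coefficient per group. The fits used eBayes, two-sided tests and Benjamini-Hochberg adjustment at 0.05. The labels give only numbers for the rats, so the spread behind the p-values is that of the pairs as labelled. Titles give rats 1 to 3 to both times. Deviations of the same rat correlated between times at 0.494, -0.024 and 0.62 in SS and 0.389, 0.321 and 0.259 in SS-13BN, and the pairing was taken from the titles as a replicate block (duplicateCorrelation, statmod 1.5.0). Fits were tested on simulated data. Figures used matplotlib 3.10.9.

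The 6 genes, the lists and the tests were chosen with earlier results of these data known. All probes of the 6 genes were named. Of the other pathway genes those past the threshold and the 2 with the smallest p in each comparison were named. The 3 nearest probes were named for likeness. Alternatives were the centring, scaling and quantile normalization of arrays, the replicate block, fits of the compared groups alone or at array level, the rule for missing values, turning by dye, and leaving out each pair.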

Additional observations from a re-analysis of the deposited data

How the results depend on the processing

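Each group value depends on 2 or 3 rat pairs, and missing arrays left several genes untested at 3 days. Of 382 comparisons of a gene's value with an alternative, 325 kept their direction and their side of the threshold, 18 passed where the main value had not, 2 kept their direction but no longer passed and 37 changed sign, of which 3, all with arrays turned by dye, also no longer passed. With the lower-numbered rat as a replicate block no call of the 6 genes changed, and the numbers past the threshold stayed 0 in SS overnight, 0 in SS at 3 days, 1 in SS-13BN overnight and 2 in the mean of the 4 groups.

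In SS overnight, where 0 genes passed, 1 passed with arrays scaled to one spread, after quantile normalization (Ephx1 in both), in a fit of this group alone (Cyp2c23) and with arrays turned by dye (Alox5ap), and 2 when arrays were fitted singly. In SS at 3 days 2 passed in an array-level fit. In SS-13BN overnight, where 1 passed, 2 did with scaled arrays, with quantile normalization or at array level, and 0 with arrays turned by dye or in a fit of the group alone. In SS-13BN at 3 days 1 passed (Cyp2c23) under scaling, quantile normalization, the group alone and the array level, against 0. In the mean of the 4 groups 2 passed, 0 with arrays turned by dye and 1 with all 3 pairs required, since Cyp2c23 could then not be tested. Leaving out 1 pair gave 0 to 1 in SS overnight and in SS at 3 days, 0 to 0 in SS-13BN overnight and 1 to 2 in the mean of the 4 groups, in part because Cyp2c23 lost the pairs it needs. The cause was not tested otherwise. Over all probes the number past the threshold also moved, in SS overnight from 13 to 51 with scaled arrays, 65 after quantile normalization, 31 in the group alone and 49 at array level, in SS at 3 days from 3 to 9, 16 and 38 (scaled, quantile, array level), in SS-13BN overnight from 116 to 226 at array level, 0 in the group alone and 45 and 12 without pair 2 and pair 3, and in SS-13BN at 3 days from 27 to 61, 64 and 58 (scaled, quantile, array level). It fell to 0 in SS overnight without pair 1 or 3, in SS at 3 days without pair 1 or 2 and in the group alone, and in SS-13BN at 3 days without pair 2 or 3, and rose to 10 in SS at 3 days without pair 3.

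Turning arrays by dye, which sets the dye effect in place of the difference between rats, called 325 probes in SS overnight and 568 in the mean of the 4 groups and reversed most signs. Against 0 it gave Cyp2c23 0.071 in SS at 3 days, 0.16 in SS-13BN overnight and 0.044 in the mean of the 4 groups, Cyp4f1 0.16 in SS overnight and 0.25 in SS-13BN overnight, and Ptger1 0.075 and 0.062 in the same groups. Ephx1 came to 0.058, 0.0080, 0.0062 and 0.00016 in SS overnight, SS at 3 days, SS-13BN overnight and SS-13BN at 3 days, and 0.018 in the mean. Alox5ap stayed positive. For SS minus SS-13BN overnight it gave Cyp2c23 -0.18, Ephx1 0.052, Alox5ap 0.18 and Ptger1 0.013, and at 3 days Ephx1 0.0079. For 3 days minus overnight it gave Ephx1 -0.050 in SS and -0.0060 in SS-13BN, and Cyp2c23 -0.20 in SS-13BN.

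Other alternatives also reversed signs. The strain difference of Cyp4f1 overnight was 0.060 with scaled arrays, 0.014 after quantile normalization, 0.48 with pairs of 1 array and 0.33 at array level. Its time difference in SS-13BN was 0.0098 uncentred, 0.10 scaled, 0.057 after quantile normalization, 0.28 with pairs of 1 array and 0.21 at array level. Leaving out 1 pair moved Alox15 in SS overnight between -0.14 and 0.034, the strain difference of Alox5ap between -0.042 and 0.022, that of Cyp2c23 at 3 days between -0.023 (without SS pair 3) and 0.54, and the time differences in SS of Cyp2c23 between -0.26 and 0.30 and of Ephx1 between -0.078 and 0.12.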
